A study of Drosophila melanogaster with 3 samples.

Results

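The genes examined were 9 fly genes of the target of rapamycin (TOR) pathway and of translation control: Lk6, larp, Thor, S6k, Tor, raptor, Rheb, Tsc1 and gig. They were chosen by name, with their peak signals in these data already known, and all 9 were found among the 17896 genes on the 6 chromosome arms, of which 13945 are protein-coding. A peak was counted for a gene when its summit, the position of highest signal, lay in the gene or within 5 kb of it. By that rule 14 of the 3392 peaks of the study's optimal list belonged to the 9 genes. Because the genes were selected on the signal of these peaks, the counts and ranks below are a description, and no test was made on them.

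The study asked where in the genome the protein Dad is found. In Drosophila melanogaster, Dad (short for Daughters against dpp) is an inhibitory Smad and damps the response to Dpp, a ligand of the BMP family. Chromatin was taken from whole embryos aged 0 to 24 h, males and females together, of a transgenic line with stable expression of Dad that carries GFP at its C terminus, and was precipitated with an antibody to GFP (chromatin immunoprecipitation followed by sequencing, ChIP-seq). The 3 biological replicates form 1 group, so no comparison of conditions exists and the replicates supply only the spread. The labels do not say which promoter drives the tagged protein or whether untagged Dad is also present. A whole embryo mixes all cell types and stages, so a signal in few cells and a weak signal in many cells cannot be told apart. The peak lists hold no expression values, so the labelled stage could not be checked against markers.

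TOR is a protein kinase that couples growth to nutrients, and it acts in a complex with raptor. The complex is switched on by the small GTPase Rheb, and Rheb is held back by the pair Tsc1 and gig (the fly TSC2). Active TOR phosphorylates S6k, a kinase of ribosomal protein S6, and Thor, the fly 4E-BP, which blocks the cap-binding factor eIF4E until it is phosphorylated. The protein of larp (the fly LARP1) binds messenger RNAs of the translation machinery, and Lk6 is a Mnk-type kinase that phosphorylates eIF4E.

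The set was dominated by 2 intronic peaks, in Lk6 and larp, while the core TOR genes had peaks of ordinary strength or none. The peak of Lk6 had a signal of 1155 and ranked 8 of 3392, and that of larp had a signal of 874 and ranked 16. The signal is the authors' value per peak, and the whole optimal list ran from 80.7 to 1827 with a median of 121.7. The other 12 peaks had signals between 84.4 and 156.2 and ranks between 1058 and 3153. Of the 14 peaks, 7 lay above the list's median and 7 below it. Lk6 and larp together held 8 of the 14.

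An optimal peak in the gene or within 5 kb was present at 7 of the 9 genes, where the same rule called 43.4% of all protein-coding genes (6052 of 13945). The exceptions were raptor and Tsc1. Within 500 bp of an annotated transcription start site (TSS), 6 of the 9 had a peak (Tor, Rheb, S6k, Thor, larp and Lk6), against 18.4% of protein-coding genes (2562). Inside the gene itself a summit was found at 3 of the 9 (Thor, larp and Lk6), against 9.92% of protein-coding genes. The 9 genes are long, with a median length of 8718 bp against 2166 bp for protein-coding genes. Among the 2179 protein-coding genes at least that long, 57.5% had a peak by the 5 kb rule and 25.9% within 500 bp of a TSS. The part of gene length in these counts was not tested further.

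**Figure D1:**
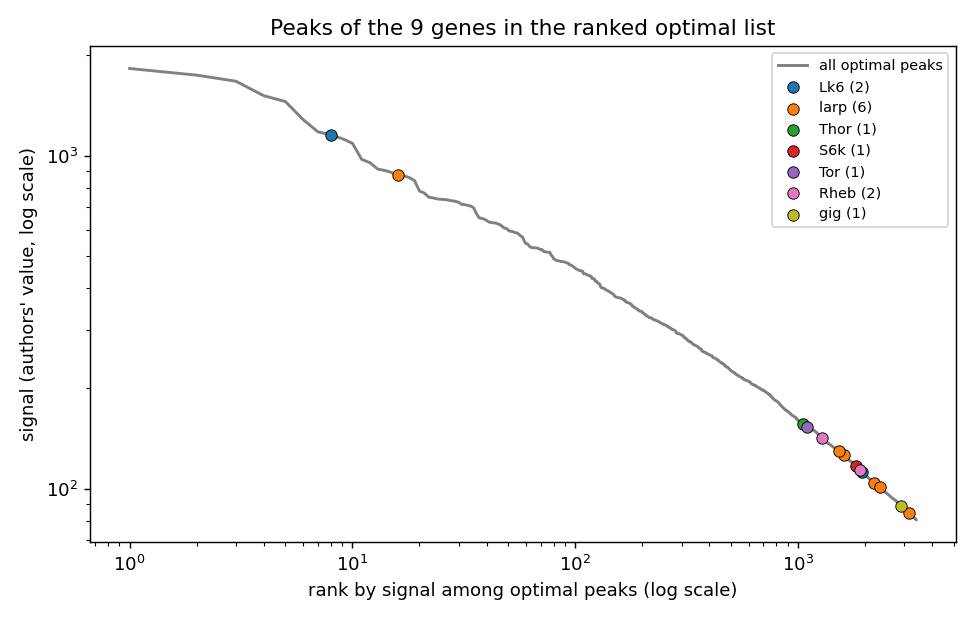
Signal of all 3392 optimal peaks (grey line, authors' value, log scale) against rank by signal (log scale), with the 14 peaks of the 9 genes as coloured points and the number of peaks per gene in brackets. Lk6 at rank 8 and larp at rank 16 sit at the top of the list, and the other 12 points lie between ranks 1058 and 3153.

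Signals of different replicates are on different scales, and the number of reads behind them is unknown. Each replicate's signal was therefore divided by that replicate's median over the optimal peaks, which was 42.6, 35.6 and 51.1 in replicates 1, 2 and 3. On this relative scale 1 is a typical optimal peak. Over 3365 optimal peaks matched in all replicates, the coefficient of variation (SD divided by mean) of the relative signal had a median of 23.1%. Every one of the 3392 optimal peaks was found unchanged in the pooled list, and 3391 were among its strongest regions. The 3392 peaks have 3391 distinct sets of coordinates, since a pair of them shares 1 set.

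Tor, the kinase itself (FBgn0021796, annotated as mTor; 2L:13004480-13013197, plus strand), had 1 optimal peak, at 2L:13003950-13004359 in build dm6, between Tor and the neighbouring gene Vha68-1. Vha68-1 encodes a subunit of the vacuolar proton pump. The summit lay 325 bp upstream of the TSS of Tor and 48 bp from that of Vha68-1, and the 2 start sites are 373 bp apart and point away from each other. In replicates 1, 2 and 3 the summit lay 40, 64 and 70 bp from the start of Vha68-1 and 333, 309 and 303 bp from that of Tor. All 3 replicates thus placed it nearer to Vha68-1. The signal was 64.1, 46.1 and 47.3 in the 3 replicates, at ranks 763, 998 and 1872 of 30000. In relative terms it was 1.50, 1.29 and 0.925, a mean of 1.24 ± 0.293 (SD, n = 3), above a typical peak in replicates 1 and 2 and just below it in replicate 3. The next optimal peak lay 5975 bp from the gene, just outside the 5 kb rule, with a signal of 151.5.

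The stretch around the Tor summit that lies outside annotated transcripts is shown because it carries the letters CGATA, the core of the sites bound by the insulator protein BEAF-32. It is 2L:13004108-13004255 of the RefSeq sequence of this assembly (Release 6 plus ISO1 MT), plus strand, 5′ to 3′, with capitals marking matches on either strand, and its GC content was 38.5%.
Tor promoter: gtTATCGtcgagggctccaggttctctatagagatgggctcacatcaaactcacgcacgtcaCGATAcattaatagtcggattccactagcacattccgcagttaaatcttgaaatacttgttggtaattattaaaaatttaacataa
The letters matched at 3 places around the summit, and the match farthest from it lies outside the printed stretch. The label only names the gene examined. The stretch lies between the start sites of Vha68-1 and Tor, begins beside that of Vha68-1 and ends before that of Tor.

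raptor, the partner through which the TOR complex recruits its substrates (FBgn0029840; X:6082634-6090201, minus strand), had no optimal peak within 5 kb. The nearest one lay 7593 bp away and had a signal of 160.7. The strongest pooled region near raptor had a signal of 51.7 at rank 6891 and lay 1270 bp from its TSS. That place is in the 5′ UTR of the neighbouring gene Nep1 and of Mipp2, a gene that overlaps raptor. A weaker pooled region, with a signal of 43.1 at rank 9432, had its summit 78 bp from the TSS of raptor, in an intron of Mipp2. Another, with a signal of 50.3, lay in the coding sequence of raptor. The strongest region near raptor reached 27.8, 13.9 and 22.2 in replicates 1, 2 and 3, or 0.652, 0.389 and 0.435 in relative terms. In every replicate this was below a typical optimal peak. The strongest region lay 1159 and 1095 bp from the TSS of raptor in replicates 1 and 2. In replicate 3 it was a different region, 733 bp from that TSS. A weaker region of replicate 3, with a signal of 17.5, lay 1103 bp from the TSS.

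Rheb, the GTPase that activates TOR (FBgn0041191; 3R:5568921-5570491, plus strand), had 2 optimal peaks, both outside the gene. Peak 2, at 3R:5568527-5568936, lay between the divergent start sites of Rheb and CG2931, which are 306 bp apart, with the summit 189 bp from Rheb and 117 bp from CG2931. Its relative signal was 0.687, 0.820 and 1.01 in replicates 1, 2 and 3 and averaged 0.838 ± 0.160 (SD, n = 3). The replicates differed in which gene was nearer. In replicate 1 it lay 111 bp from Rheb and 195 bp from CG2931, whereas in replicates 2 and 3 it was 117 and 136 bp from CG2931. Peak 1, at 3R:5565515-5565924, lay in an intron of CG12746, 3201 bp from the TSS of Rheb and 554 bp from that of CG12746. Its relative signal was 1.06, 0.876 and 1.31, a mean of 1.08 ± 0.217. The ranges of the 2 peaks over the replicates overlapped.

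The 201 bp around the summit of Rheb peak 2 (3R:5568632-5568832, plus strand) are shown as the case with no match to any of the 10 motifs searched, with a GC content of 29.9%.
Rheb promoter: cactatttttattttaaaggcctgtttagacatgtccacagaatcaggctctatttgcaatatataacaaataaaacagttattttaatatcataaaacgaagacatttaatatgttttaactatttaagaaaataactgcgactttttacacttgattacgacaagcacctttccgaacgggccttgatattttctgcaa

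Of the inhibitors of Rheb, neither had a peak at its start site. Tsc1 (FBgn0026317; 3R:24130307-24134654, plus strand) had no optimal peak within 5 kb, and the nearest lay 6559 bp away with a signal of 84.6. Its strongest pooled region, with a signal of 41.5 at rank 10070, lay in the coding sequence of the divergent neighbour GatB, 282 bp from the TSS of Tsc1. The strongest region near Tsc1 had signals of 17.0, 15.1 and 21.8 in replicates 1, 2 and 3, or 0.399, 0.424 and 0.426 in relative terms. These were not the same region, since it lay in Tsc1 in replicates 1 and 3, at different places, and in the gene Root in replicate 2.

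gig, the GTPase-activating partner of Tsc1 (FBgn0005198; 3L:20129181-20139010, plus strand), had 1 optimal peak, at 3L:20140536-20140945. It lay 1731 bp past the end of gig and 11560 bp from its TSS, and 134 bp from the TSS of CG7328. The relative signal was 0.571, 0.781 and 0.761, a mean of 0.704 ± 0.116 (SD, n = 3), below a typical peak in every replicate. It ranked 4814 in replicate 1, outside that replicate's 3392 strongest regions, and 2866 and 2650 in replicates 2 and 3. Without replicate 2 or 3, gig had no peak in the regions shared by the remaining replicates.

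S6k, the kinase of ribosomal protein S6 (FBgn0283472; 3L:5797549-5810931, minus strand), had 1 optimal peak, at 3L:5810758-5811167. It covered the divergent start sites of S6k and kri, which are 42 bp apart. The pooled summit lay 32 bp from S6k and 10 bp from kri, and the summits of the replicates lay 66, 111 and 44 bp from S6k and 24, 69 and 2 bp from kri. The signal was 34.9, 27.7 and 49.8 in replicates 1, 2 and 3, at ranks 2401, 2881 and 1738. In relative terms it was 0.819, 0.780 and 0.973, a mean of 0.857 ± 0.102 (SD, n = 3), so that all 3 values lay below a typical peak. A further pooled region inside S6k, 1516 bp from its TSS, had a signal of 62.9 and fell short of the optimal list.

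The 41 bp between the start sites of S6k and kri (3L:5810932-5810972, plus strand) are shown as the DNA that both genes share upstream. Their GC content was 53.7%, against a median of 39.3% over whole optimal peaks, and they held no motif match.
S6k promoter: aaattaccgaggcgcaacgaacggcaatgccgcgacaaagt

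Thor, the eIF4E-binding repressor of translation (FBgn0261560; 2L:3478434-3479612, plus strand), had 1 optimal peak, at 2L:3478258-3478667, with the summit in its 5′ UTR and 29 bp from a TSS. The replicate summits lay 27, 7 and 24 bp from a TSS of Thor, and no start site of another gene was nearer in any replicate. The signal was 39.9, 61.7 and 51.9 in replicates 1, 2 and 3, at ranks 1862, 535 and 1609. The relative signal was 0.937, 1.74 and 1.01, a mean of 1.23 ± 0.440 (SD, n = 3). Replicate 2 stood above the other 2, which were at the level of a typical peak. The strongest region near the 9 genes that missed the optimal list lay 2245 bp from Thor and had a signal of 64.0, where the weakest optimal peak of the 9 genes, at larp, had 84.4.

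The 71 bp upstream of the TSS of Thor (2L:3478363-3478433, plus strand) are shown because they hold a run of the letters GAGAG, the core of the sites of the GAGA factor. Capitals mark the matches, which begin 89, 83, 81 and 79 bp before the summit, the last 3 of them overlapping, and the GC content was 49.3%.
Thor promoter: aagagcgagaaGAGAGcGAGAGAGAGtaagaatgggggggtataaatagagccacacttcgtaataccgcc
A match to GTAAACA, the core of the sites of the forkhead factor foxo, began 66 bp after the summit, within the transcript, and is not printed. Thor is a known transcriptional target of foxo in flies.

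larp, the LARP1 gene (FBgn0261618; 3R:28318162-28336440, minus strand), is 18279 bp long with 6 annotated start sites, and it had 6 optimal peaks, 4 of them in the gene. At least 6 peaks by the 5 kb rule were found at 40 protein-coding genes, and at least 4 inside the gene at 59. Peak 1, at 3R:28326419-28326776, lay in an intron, 9845 bp from the gene's 5′ end and 331 bp upstream of an internal start site. Its signal was 299, 257 and 316 in replicates 1, 2 and 3, at ranks 16, 12 and 21 of 30000. The relative signal was 7.00, 7.23 and 6.18, a mean of 6.80 ± 0.554 (SD, n = 3), with a coefficient of variation of 8.15%. The 3 replicates thus lay close together, all far above a typical peak.

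The other 5 peaks of larp were of ordinary strength. Peak 5 lay 92 bp upstream of the gene's outermost TSS and had relative signals of 1.37, 1.04 and 0.673, a mean of 1.03 ± 0.346. Peak 4, in an intron 269 bp upstream of another start site, had 1.10, 0.827 and 1.11, a mean of 1.01 ± 0.160. These values straddle that of a typical peak. Peaks 2 and 3, in introns 939 and 1095 bp from the nearest TSS of larp, had means of 0.629 ± 0.244 and 0.853 ± 0.464. In replicate 1 they were weak, with relative signals of 0.347 and 0.364 and ranks of 14965 and 13440, far outside that replicate's 3392 strongest regions. Peak 6 lay 3405 bp from larp and 80 bp from the TSS of Gfat2, a gene of hexosamine synthesis, and had 0.876, 0.401 and 0.945, a mean of 0.741 ± 0.296, the low value being that of replicate 2.

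Within each replicate, where no scaling is needed, the signal of larp peak 1 was 5.13, 6.92 and 9.17 times that of peak 5 at the outermost TSS, a mean ratio of 7.07 ± 2.02 (SD, n = 3). Against peak 4 the ratios were 6.37, 8.73 and 5.56, a mean of 6.89 ± 1.65. Peak 1 was the stronger of each pair in every replicate, while the size of the ratio varied.

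Lk6, the eIF4E kinase (FBgn0017581; 3R:11750931-11764457, minus strand), is 13527 bp long, has 2 annotated start sites and had 2 optimal peaks. Peak 1, at 3R:11760867-11761231, lay in an intron, 3410 bp downstream of the gene's 5′ end and 968 bp upstream of the internal start site. Its signal was 408, 312 and 437 in replicates 1, 2 and 3, at ranks 9, 8 and 7 of 30000. The relative signal was 9.56, 8.77 and 8.54, with a mean of 8.96 ± 0.537 (SD, n = 3), with a coefficient of variation of 6.00%. The pooled and replicate summits lay within 9 bp of one another. Lk6 peak 1 was thus among the 10 strongest regions of every replicate.

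Lk6 peak 2, at 3R:11764368-11764777, lay 116 bp upstream of the outer TSS. Its signal was 47.2, 32.4 and 48.1 in the replicates, and its relative signal was 1.11, 0.911 and 0.940, a mean of 0.987 ± 0.107, which is the level of a typical peak. Within each replicate peak 1 was 8.63, 9.63 and 9.08 times as strong as peak 2, a mean ratio of 9.11 ± 0.503 (SD, n = 3). The ratio of the intronic to the outer peak was thus steadier over replicates at Lk6 than at larp. Lk6 peak 1 exceeded larp peak 1 by 1.36, 1.21 and 1.38 times in the 3 replicates, a mean of 1.32 ± 0.0927.

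The intronic summits of Lk6 and larp are shown side by side because they are the strongest sites of the set. They are the 201 bp around each summit, 3R:11760947-11761147 for Lk6 and 3R:28326495-28326695 for larp, both on the plus strand of the same assembly. Capitals mark motif matches. Below them stands the stretch around Lk6 peak 2 (3R:11764473-11764673), which holds the letters GCCGNC of the GC-rich sites of the Smad protein Mad.
Lk6 intron: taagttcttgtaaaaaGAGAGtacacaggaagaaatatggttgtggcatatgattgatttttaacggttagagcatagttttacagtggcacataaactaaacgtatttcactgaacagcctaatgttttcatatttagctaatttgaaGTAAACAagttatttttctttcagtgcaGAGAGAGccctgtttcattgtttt
larp intron: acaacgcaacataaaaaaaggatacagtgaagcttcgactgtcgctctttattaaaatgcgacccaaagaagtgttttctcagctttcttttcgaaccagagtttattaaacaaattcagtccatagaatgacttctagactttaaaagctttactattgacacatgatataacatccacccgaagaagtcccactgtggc
Lk6 outer promoter: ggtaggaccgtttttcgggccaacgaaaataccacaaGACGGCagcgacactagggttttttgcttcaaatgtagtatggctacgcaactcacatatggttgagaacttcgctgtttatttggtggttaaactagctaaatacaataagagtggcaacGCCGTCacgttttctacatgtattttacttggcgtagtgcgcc
The Lk6 intron held GAGAG beginning 84 bp before and 77 and 79 bp after the summit along the plus strand, and GTAAACA beginning 49 bp after it. The larp intron held none of the 10 motifs. Their GC contents were 32.3% and 37.3%.

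**Figure D2:**
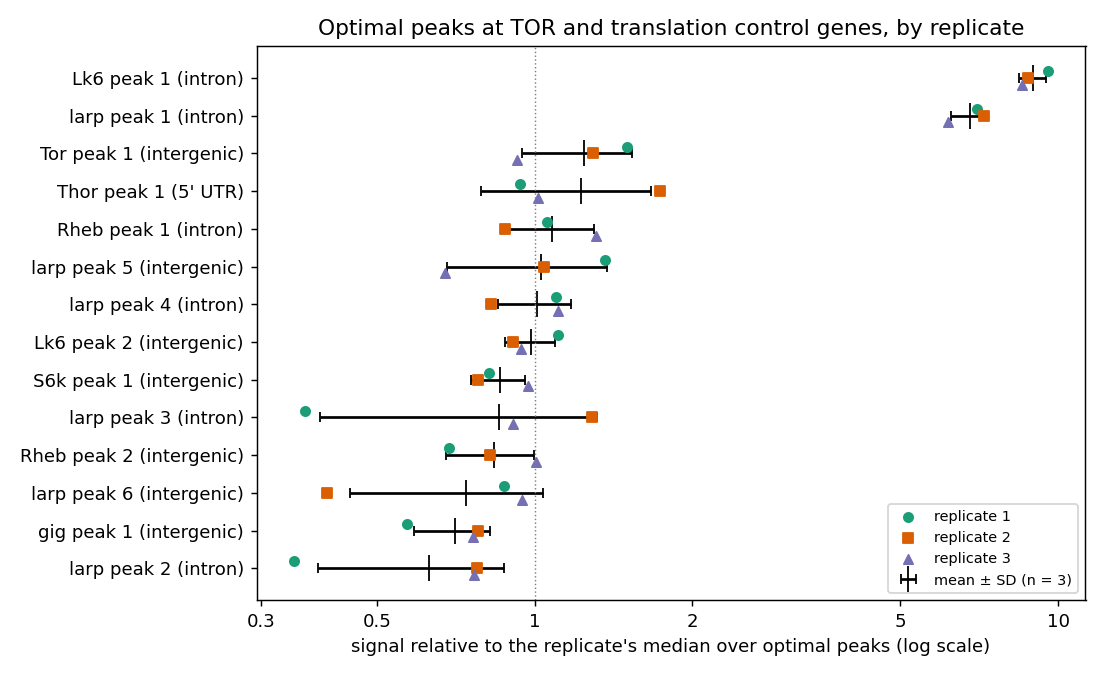
Relative signal (signal divided by the replicate's median over the optimal peaks, log scale) of the 14 optimal peaks in replicates 1, 2 and 3 (circles, squares and triangles), with the mean ± SD (n = 3) in black and a dotted line at 1. Lk6 peak 1 (mean 8.96) and larp peak 1 (mean 6.80) stand apart from all others, whose means run from 0.629 to 1.24 and among which neighbours in the order overlap over the replicates.

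In order of mean relative signal, the replicate ranges of Lk6 peak 1 and larp peak 1 did not overlap, and neither did those of larp peak 1 and the next peak, at Tor. The other 11 steps in the order, from Tor down to larp peak 2, separated neighbours whose replicate ranges overlapped. The order of neighbours among these 12 peaks is therefore within the replicate spread, although peaks far apart in it could differ. The values of Tor (0.925 to 1.50) all lay above those of gig (0.571 to 0.781) and larp peak 2 (0.347 to 0.775). Of the 14 peaks, 10 were among the 3392 strongest regions of all 3 replicates and 4 (larp peaks 2, 3 and 6 and the peak of gig) were in 2 of them. The share of all optimal peaks that reached this in all 3 replicates is not given here. These counts therefore describe the 14 peaks and show no trait particular to them. The 2 strongest peaks were also the narrowest, at 365 and 358 bp, and the other 12 had the width of 410 bp that is the median of the list. Narrowness went with strength in the list at large, since 22 of its 25 strongest peaks were below that width against 559 of all 3392.

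The optimal peaks whose relative signals in the 3 replicates were closest to those of Lk6 peak 1, among 3364 compared by Euclidean distance on the log2 scale, lay nearest to ph-p, PNPase and CG1888. Their means were 8.89 ± 0.707, 9.21 ± 0.969 and 8.56 ± 0.952 (SD, n = 3). For larp peak 1 they lay nearest to CenG1A, CG32772 and CG13921, with means of 7.07 ± 0.456, 7.07 ± 0.345 and 6.78 ± 0.943. Over 3 replicates such likeness is mainly likeness of level.

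**Figure D3:**
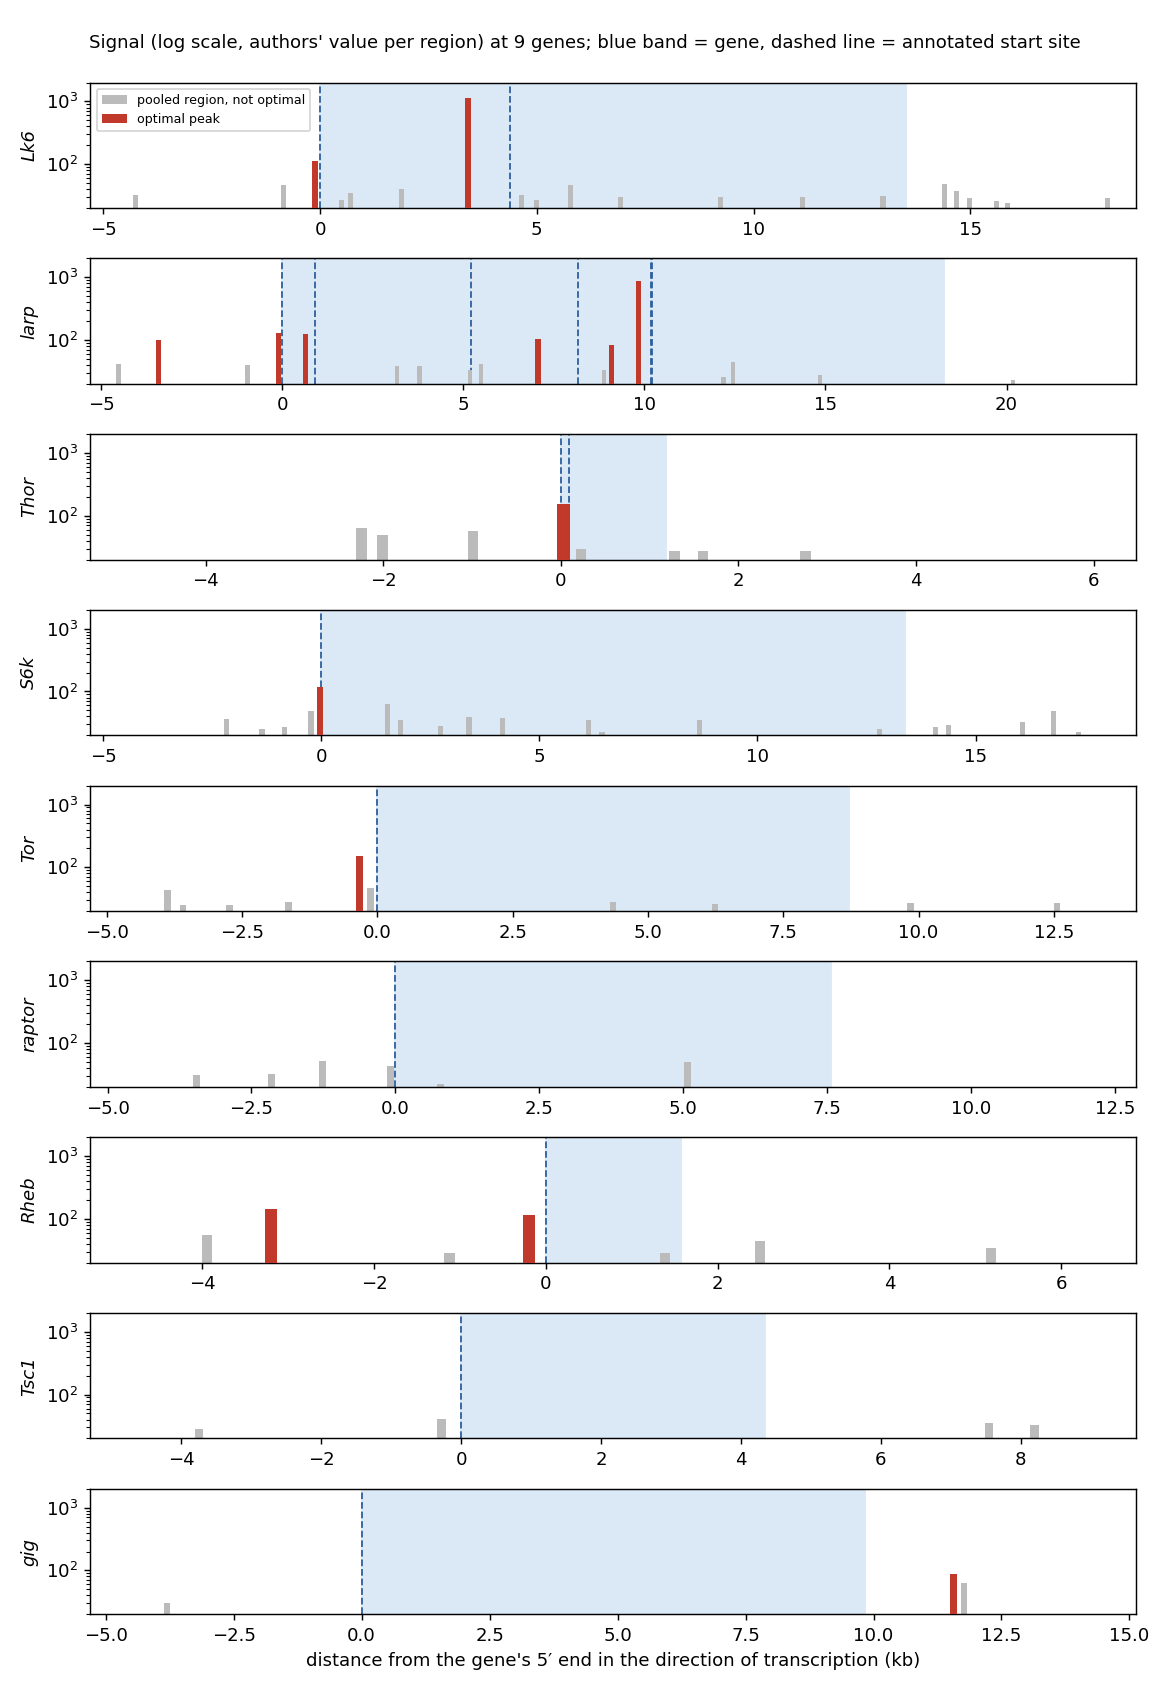
Regions at the 9 genes, drawn at their summits by distance from the gene's 5′ end in the direction of transcription (kb), with signal in the pooled list on a log axis; optimal peaks are red, other pooled regions grey, the gene is the blue band and dashed lines are annotated start sites. Strong red bars stand inside Lk6 and larp. The peaks of Tor, S6k and Thor, and 1 of the 2 peaks of Rheb, stand within 500 bp of their start sites. The other peak of Rheb lies 3201 bp upstream, raptor and Tsc1 have grey regions only, and the peak of gig lies past its end.

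By position, 7 of the 14 summits were intergenic, 6 were intronic and 1 was in a 5′ UTR, and 8 lay within 500 bp of a start site of the gene itself. For 6 of the 14 the nearest protein-coding start site was that of another gene (Vha68-1, CG12746, CG2931, CG7328, kri and Gfat2). A divergent protein-coding start site within 500 bp was annotated for 4 of the 9 genes (Tor, Rheb, Tsc1 and S6k), against 26.4% of protein-coding genes. At Tor, Rheb and S6k the peak stood in or beside that shared stretch, so it cannot be assigned to either gene. Another 75 pooled regions at the 9 genes overlapped no optimal peak, with signals from 22.1 to 64.0 and a median of 31.9. Of these, 26 (34.7%) lay in coding sequence, of the 9 genes or of their neighbours, where no optimal peak of the 9 genes had its summit. The shares of these positions over all optimal peaks and all pooled regions are not given here. The counts by position therefore describe these 14 peaks and 75 regions and show no trait particular to the 9 genes.

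The 10 motifs were looked for on either strand in the 100 bp to each side of a summit, and a match only describes the letters there. GTAAACA (foxo) was found at 4 of the 14 peaks (Lk6 peak 1, Thor, and larp peaks 3 and 6), against 6.34% of all optimal peaks. At larp peaks 3 and 6 the match began 8 bp before and 5 bp after the summit along the plus strand. CGATA (BEAF-32) was found at 5 (Tor, Thor, gig, and larp peaks 3 and 5), against 35.7%, and GAGAG (GAGA factor) at 5 (Lk6 peak 1, Thor, gig, and larp peaks 2 and 6), against 24.7%. GCCGNC (Mad) was found at 2 (Lk6 peak 2 and larp peak 4), against 15.8%, and GTCTG, which holds the Smad box, at 0, against 20.1%. GGTCACAC, the core of the promoter element called motif 1, was found at larp peak 6 only, against 3.60%. No peak of the 14 held TATCGATA, the DNA replication-related element and an overlap with the BEAF-32 letters, which occurred in 6.49% of all optimal peaks. None held the E-box CACGTG (2.89% of all optimal peaks), and none the cyclic AMP response element TGACGTCA (0.472%). The letters CAGGTA of the early embryonic factor Zelda were also at 0 of the 14, against 4.16%.

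Between peak 1 and peak 3 of larp, motif matches and signal went apart. The set at large did not follow this, since Lk6 peak 1, the strongest, held GAGAG and GTAAACA. The weaker peaks of Rheb and S6k held no match. The strongest larp peak had no motif match, whereas peak 3, with a mean relative signal of 0.853, held both GTAAACA and CGATA. This stretch (3R:28329278-28329478, plus strand) is shown for comparison with the larp intron above, with capitals marking the matches.
larp peak 3: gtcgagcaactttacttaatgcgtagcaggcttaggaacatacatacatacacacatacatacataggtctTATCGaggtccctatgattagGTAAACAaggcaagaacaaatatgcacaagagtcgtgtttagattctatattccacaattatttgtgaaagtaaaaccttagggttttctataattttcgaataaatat

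Around the 9 genes, 5 further lists of pathway genes were examined, of which 86 of 87 symbols were matched. An optimal peak in the gene or within 5 kb was found at 58 of the 86 (67.4%, against the 43.4% of protein-coding genes), and within 500 bp of a TSS at 33 (38.4%, against 18.4%). The lists differed. In the order below, the 5 kb rule gave 52.9%, 68.4%, 87.5%, 60.0% and 74.1%. The start-site shares were 23.5% (insulin branch), 21.1% (TOR complexes and amino acid sensing) and 26.7% (TOR outputs). They were higher in the energy and hypoxia inputs (87.5%) and the translation regulators (51.9%). The median gene length of the lists was 4410 bp, against 2166 bp for protein-coding genes. As with the 9 genes, the lists were drawn up with results of these data known, so the shares are a description.

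In the insulin branch, which feeds into TOR, 9 of 17 genes had a peak by the 5 kb rule and 4 at a TSS. The receptor gene InR had a peak with a signal of 165.9 at 37 bp from a TSS and a stronger one of 311.5 in an intron, with a mean relative signal of 2.43 ± 0.229 (SD, n = 3). Pi3K21B, the regulatory subunit of PI3 kinase, had a signal of 292.8 at 18 bp from its TSS. The kinase gene Pdk1 had 108.8. The 3 highest without a start-site peak were foxo (238.6), Ilp6 (181.1, in an intron of Raf) and Pi3K92E (140.6, at 518 bp from its TSS). The insulin-like peptide genes Ilp1 to Ilp5 and Ilp8, and the adaptor genes chico and Lnk, had none.

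Among genes of the TOR complexes and of amino acid sensing, 13 of 19 had a peak by the 5 kb rule and 4 at a TSS. The highest was at Sesn, the sestrin gene, with a signal of 527.6 (rank 68) and a relative signal of 4.07 ± 0.633 (SD, n = 3), 216 bp from its TSS. That peak was as near to a start site of CG46429. The others at a TSS were Lamtor3 (223.8) and Lamtor4 (91.4), of the complex that anchors TOR at the lysosome, and Wdr24 (122.0), of the GATOR2 complex. The highest without a start-site peak were Nprl3 (375.7), mio (304.3) and Samtor (207.0), whose peaks lay 3199, 4522 and 3486 bp from their own start sites and nearer to those of upSET, papi and CG4707. As with raptor, no peak lay at the start of rictor or Lst8.

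Of the energy and hypoxia inputs, 7 of 8 genes had a peak at a TSS, the exception being AMPKalpha, the catalytic subunit of the AMP-activated kinase, which had none within 5 kb. Its other subunit genes SNF4Agamma and alc had signals of 152.9 and 140.3 at a start site. The TOR inhibitors scyl and chrb had 106.8 and 105.3, the hypoxia genes Hph and sima 101.9 and 88.6, and the upstream kinase gene Lkb1 84.9. Of these start-site peaks, only those of SNF4Agamma and alc were above the median signal of 121.7. Stronger peaks by the 5 kb rule stood farther from the start sites of 4 of these genes. Their signals were 458.8 at alc (rank 100, 930 bp from its TSS and nearer to that of CG44286), 250.6 in an intron of sima, 194.7 near scyl and 187.3 in an intron of SNF4Agamma.

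Of the TOR outputs, 9 of 15 genes had a peak by the 5 kb rule and 4 at a TSS. REPTOR, a transcription factor that TOR holds in the cytoplasm, had a signal of 374.9 (rank 156) at 160 bp from a TSS in an intron, with a relative signal of 2.95 ± 0.457 (SD, n = 3). Atg17 had 206.1, S6KL 101.9 and Tctp 85.6, the peaks of Atg17 and Tctp being nearer to Xe7 and SdhC. The highest without a start-site peak were Atg13 (320.6, nearest to stck), REPTOR-BP (130.5, at 2936 bp from its TSS and nearer to that of another gene) and Myc (125.5, in an intron). RpS6, the substrate that gives S6k its name, had none.

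Of the translation regulators, 20 of 27 had a peak by the 5 kb rule and 14 at a TSS. The start-site peaks ran from 87.5 at La to 201.7 at eIF4EHP, a cap-binding repressor, whose relative signal was 1.59 ± 0.363 (SD, n = 3). The peak at La lay 374 bp from its TSS and 48 bp from that of RtGEF. The peak at eIF4G2 was as near to a start site of CG33111 as to its own. The list takes in the substrate of Lk6, eIF4E1 (104.7 at 15 bp from a TSS), the helicase gene eIF4A (97.0), the scaffold gene eIF4G2 (117.4), the poly(A)-binding protein gene pAbp (115.1) and its inhibitor Paip2 (105.0). It also takes in the elongation factor gene eEF2 (150.3), Fmr1 (170.0), Rack1 (163.3), msi (152.1), bel (149.3) and the stress kinases p38a (113.0) and p38b (92.2). All 14 were far below the intronic peaks of Lk6 and larp. The highest signals of the 5 lists stood at Gcn2 (1179), PPP1R15 (751) and bel (598.1, apart from its start-site peak). Those peaks lay 9000, 1284 and 9446 bp from the genes' own start sites and nearer to those of PNPase, Sox14 and SLIRP2. Larp4B, a relative of larp, had 247.6 from a peak nearest to RpL28.

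**Figure D4:**
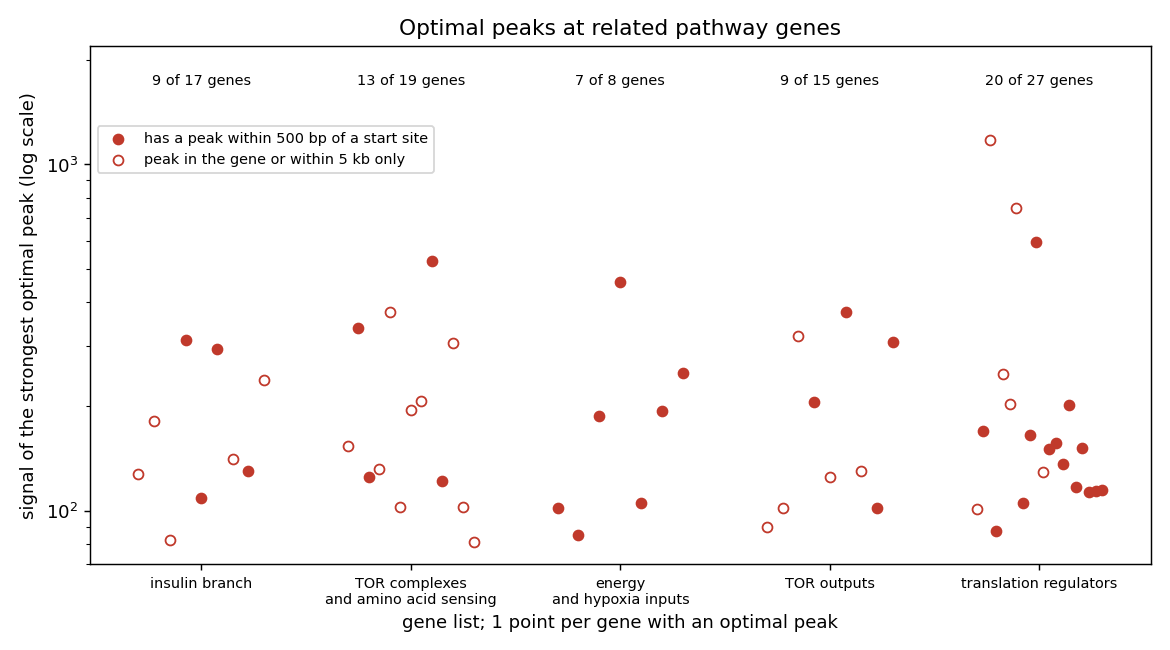
Signal of the strongest optimal peak by the 5 kb rule (authors' value, log scale) for each gene of 5 related lists that had one, with filled circles for genes that also had a peak within 500 bp of a start site and open circles for the rest. The counts above each list (9 of 17, 13 of 19, 7 of 8, 9 of 15 and 20 of 27) give the genes with a peak, and the open circle at 1179 is Gcn2, whose peak lay 9000 bp from its start site.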

How the data were processed

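ChIP-seq peak lists of 3 biological replicates were read. Per the deposited file listings, each replicate has 30000 regions called against a control, peaks and background together, and so do the pooled alignments. The authors' optimal list holds those that passed a threshold on the irreproducible discovery rate (IDR). That threshold, the aligner, the peak caller and their versions: not given in the sources used here. Lists on build dm3 and the control library are not analysed here. The deposited signal is the caller's value per region and has a different scale in each list, so it was used to rank within a list or after division by a replicate's median at optimal peaks. In the deposited −log10 q column the values stop at a ceiling (3.87 in the pooled list), and strong peaks tie there. A −log10 q of 2 or more was reached by 3927 regions in replicate 1, 6376 in replicate 2 and 6410 in replicate 3. The deposited summit column counts bp from a region's start. Depth is unknown, and no interval that needs it is given. The labels number the samples as biological replicates but do not say whether the embryos came from separate cultures. The SD therefore covers the spread between these samples, part of which may be technical. The labels name Dad as the target of the antibody and describe the precipitation as anti-GFP.

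Genes and start sites were taken from Ensembl release 115 (BDGP6.54) in Python 3.11.15 with pandas 2.3.3. Tor was matched as mTor, and the symbol Lobe was not matched. Regions of a replicate were matched to an optimal peak by an overlap of at least 1 bp. The members and lists were chosen with earlier results of these data known. Genes named are the 9 members, the gene nearest to each of their peaks, in each wider list every gene with a start-site peak (1 is not reported here) and the 3 of highest signal without one, and the genes nearest to the 3 peaks most like those of Lk6 and larp. Genes named because they had no peak (among them Ilp1 to Ilp5, chico, AMPKalpha and RpS6), Lst8 and rictor were chosen after their values were seen. Sequences come from the RefSeq assembly of the same build, with annotated UTR bases left out. Alternatives were other windows, the stronger 1696 peaks, each replicate's and the pooled list, other scaling and overlap, and leaving out each replicate.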

Additional observations from a re-analysis of the deposited data

How the results depend on the processing

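With gene bodies alone in place of the 5 kb window, 3 of the 9 genes had an optimal peak (Thor, larp and Lk6) in place of 7, and 29 of the wider genes in place of 58. The share of protein-coding genes fell to 9.92% in the same change. With the stronger 1696 peaks alone, 3 of the 9 genes had a peak within 500 bp of a TSS (Tor, Thor and larp) in place of 6, and the share of protein-coding genes was 9.92%. The start-site peaks of Lk6, Rheb and S6k, at ranks 1937, 1903 and 1828, fell outside those 1696. The other alternatives kept each count within 1.5 times. For the 9 genes by the 5 kb rule they gave 5 with the stronger 1696 peaks (26.5% of protein-coding genes), 7 with the pooled list (43.4%), 6, 7 and 7 with the lists of replicates 1, 2 and 3 (43.6%, 42.0% and 42.6%), and 6 and 9 with windows of 1 and 10 kb (26.4% and 56.9%). The pooled list cut to the same size is nearly the optimal list itself, since 3391 optimal peaks are among its strongest regions. Its count could therefore hardly differ and is no separate check. Leaving out each replicate in turn gave 6 to 7 genes by the 5 kb rule, gig being the gene lost, and 6 within 500 bp of a TSS each time, where protein-coding genes gave 32.3% to 34.4% and 12.4% to 13.6%. A TSS window of 250 bp gave 5 genes (Tor dropped out, at 325 bp) and 1000 bp gave 6, against 15.3% and 21.0% of protein-coding genes. The mean relative signal moved by more than 1 SD at 1 of the 14 peaks, Lk6 peak 1, which was 9.50 in place of 8.96 under a reciprocal overlap of 50%. That setting raised all 14 means in like proportion, as at Tor (1.24 to 1.32) and larp peak 1 (6.80 to 7.22). The rise is therefore not particular to Lk6 peak 1. Other scaling, or leaving out any replicate, moved none of the 14 by more than 1 SD. No paired analysis was possible because there is 1 group. Depth is unknown, so whether the regions at raptor and Tsc1 would reach the optimal list with more reads was not tested.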
